A study of Mus musculus with 24 samples.

Results

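The data described here compare kidneys of PolgD257A mice with kidneys of Polg+/+ mice after sham surgery, across all genes, with no ischemic injury in either group. They are 12 of the 24 RNA-seq libraries of the series, 6 sham PolgD257A and 6 sham Polg+/+, and 16691 of 55416 gene IDs had enough counts to be tested. The series was made to learn how mutations of mitochondrial DNA add to ischemia reperfusion injury. It also holds 6 B-IRI PolgD257A and 6 B-IRI Polg+/+ kidneys, where B-IRI is the submitters' name for the injury surgery, and these serve below as libraries that the sham comparison did not use. All mice are described as littermates. The table's columns are headed Mut and Ctrl, read here as PolgD257A and Polg+/+, a reading that no source states and on which every comparison rests. The zygosity of D257A, the age and sex of the mice and the time from surgery to collection are not stated in those sources.

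Polg encodes the catalytic subunit of the polymerase that copies mitochondrial DNA. The D257A change removes its proofreading activity, so errors made during copying stay in the mitochondrial genome and gather with age. The mouse mitochondrial genome encodes subunits of the respiratory chain and the rRNAs and tRNAs needed to translate them, and its transcripts are cut from long precursors at the tRNAs that separate them. Damaged mitochondria are known to call up the integrated stress response, in which ATF4 and ATF5 turn on amino acid synthesis genes. Mitochondrial nucleic acids that leak into the cytosol are known to turn on interferon-stimulated genes. These statements are background and are not read from the values below.

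Values are normalized counts, that is, reads per gene divided by 1 size factor per library. Differences are log2 of PolgD257A over Polg+/+ on the log2(normalized count + 1) scale, which understates the change of genes with few counts. They are given ± SE from limma, and adjusted p-values are Benjamini-Hochberg values over the 16691 genes, with 0.05 as the threshold. Sham PolgD257A libraries held 20843184 to 25858504 reads assigned to genes and sham Polg+/+ libraries 16689284 to 19737994, so the groups did not overlap in depth (exact permutation test, two-sided, p = 0.002165, adjusted p = 0.00758 over 7 library measures; 6 against 6 can give no smaller p). The libraries are labelled as biological replicates, and p-values measure the spread between them. Depth and genotype cannot be told apart in these libraries. With all libraries thinned to the lowest total, 22 genes were higher and 9 lower, and 30 of the 36 genes called at full depth kept their call. On the second principal component (13% of the variance) sham Polg+/+ replicate 6 lay at -29.9, outside the range of the other libraries (-13.1 to 15.8). Y-linked Ddx3y was between 1361 and 1611 in every PolgD257A library and between 1322 and 1631 in every Polg+/+ library. As in whole kidney, summed counts of 32 proximal tubule genes were 1543956 to 1859266 in PolgD257A and 1458599 to 1723809 in Polg+/+ libraries.

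For the mutated gene itself no difference in mRNA was detected. Polg (ENSMUSG00000039176.18) had 996.7 to 1134 normalized counts in PolgD257A kidneys, with a median of 1032, and 1031 to 1093 in Polg+/+ kidneys, with a median of 1053. The groups overlapped, and the difference was log2 -0.02 ± 0.04 (95% interval -0.11 to 0.07, adjusted p = 0.93). A codon change need not alter the amount of mRNA, so Polg counts are no check of genotype.

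Few genes separated the genotypes before injury. In sham kidneys 36 genes passed the threshold, 0.216% of those tested, of which 24 were higher in PolgD257A (0.144%) and 12 lower (0.0719%). At an unadjusted p under 0.05 there were 1313 genes. The called differences were mostly small: only 4 of 36 genes exceeded an absolute log2 of 1, the median of the higher genes was 0.59 and that of the lower genes -0.47. In 34 of the 36 the 6 PolgD257A libraries all lay on one side of the 6 Polg+/+ libraries, a separation seen in 0.635% of all genes tested. The exceptions were Gm42047 and Shank2. The same libraries gave the calls, so a lack of overlap is no further evidence for them, here or for the called genes below. The total fell to 18 without PolgD257A replicate 4 and 19 without PolgD257A replicate 5, and was 44 without Polg+/+ replicate 6. The called genes fell into a stretch of chromosome 7 beside Polg, mitochondrial tRNAs, interferon-stimulated genes and amino acid stress genes. The intercalated cell genes Foxi1 and Rhcg (the latter also in that stretch), a clock gene and genes of other functions made up the rest. The median difference over all genes tested was 0.007.

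**Figure D1:**
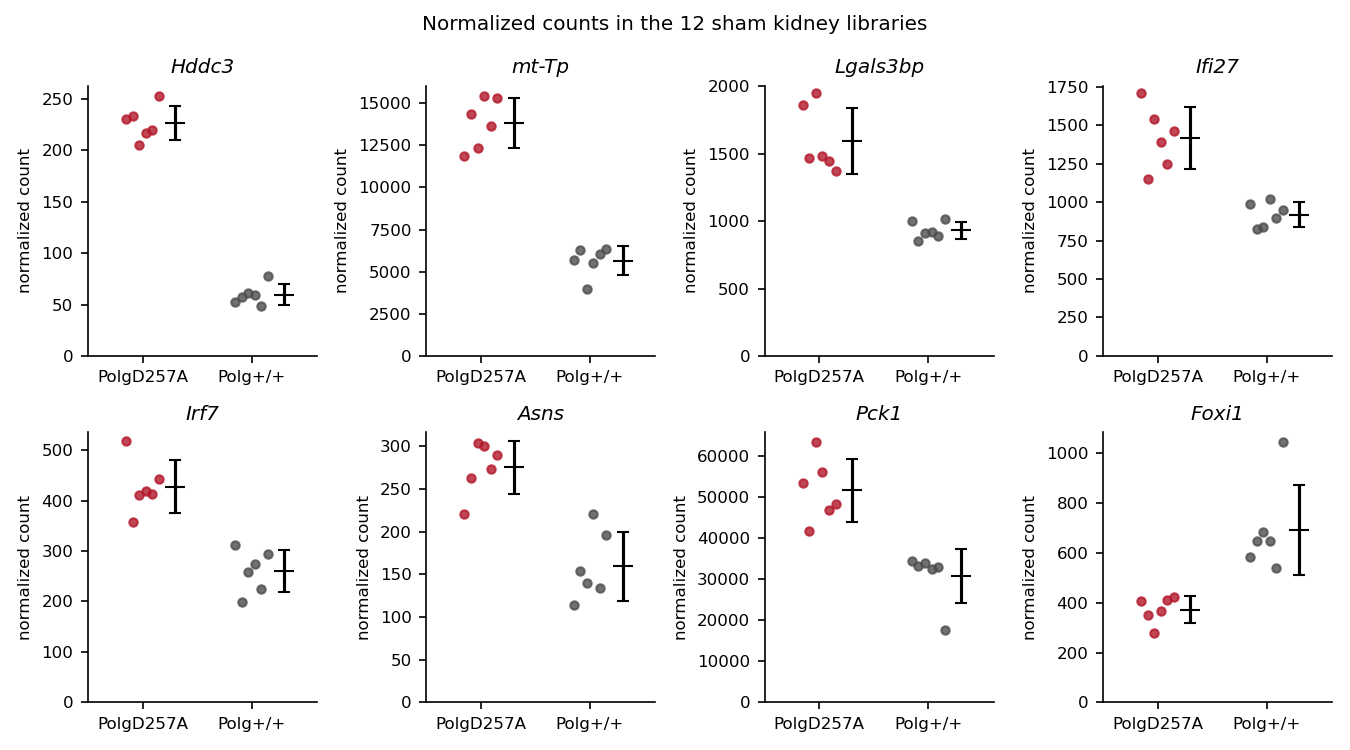
Normalized counts (y axis, from 0) of 8 called genes in the 6 sham PolgD257A libraries (left, red) and the 6 sham Polg+/+ libraries (right, grey), with the mean and SD beside each group of points. For all 8 genes the groups do not overlap, and Polg+/+ replicate 6 stands apart in Foxi1 (1044) and Pck1 (17557).

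The largest differences were in genes that lie beside Polg on chromosome 7. Hddc3 (ENSMUSG00000030532.7), which encodes the phosphohydrolase MESH1, had 204.8 to 252.4 normalized counts in PolgD257A kidneys (median 225.2) and 48.5 to 77.95 in Polg+/+ kidneys (median 58.09). Every PolgD257A library was thus far above every Polg+/+ library, a 3.8-fold difference (log2 1.93 ± 0.11, adjusted p = 3.0e-08). Hddc3 lies at chromosome 7, 80343104 to 80350547 on the plus strand of GRCm38, 896.9 kb from Polg. Hapln3, which encodes a link protein of the hyaluronan matrix and lies 331.1 kb from Polg on the other side, was scarce in both groups. It had 19.41 to 38 normalized counts in PolgD257A and 2.36 to 7.69 in Polg+/+ kidneys, again without overlap (log2 2.19 ± 0.26, adjusted p = 9.0e-04). Its level in Polg+/+ libraries lies below the count of 10 that a tested gene had to reach, so it passed the filter on its PolgD257A libraries.

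Smaller differences in both directions lay between these genes. Ngrn, which encodes neugrin, a protein needed for mitochondrial ribosome assembly, was 764.3 to 963.9 in PolgD257A and 554.4 to 678.6 in Polg+/+ kidneys (log2 0.51 ± 0.06, adjusted p = 1.0e-03). Rccd1, which encodes a partner of a histone demethylase, was higher too (0.47 ± 0.09, adjusted p = 0.025), but its call was lost in 7 of the 12 fits that left out 1 library, at differences of 0.44 to 0.49. Lower genes were Gdpgp1, which encodes a GDP-glucose phosphorylase (66.45 to 102.5 in PolgD257A against 115.3 to 149.9 in Polg+/+, log2 -0.64 ± 0.11), the predicted gene Gm45170 (-0.76 ± 0.12) and Rhcg (-0.27 ± 0.05), an ammonia transporter gene taken up again with the intercalated cell genes. The call of Gdpgp1 was lost without sham Polg+/+ replicate 3 (log2 -0.62, adjusted p = 0.052). Without strand-aware counting, reads of Hddc3 cannot be told from those of Man2a2, nor Rccd1 from Prc1, which overlap them on the opposite strand. Gm45170 overlaps Rhcg on its own strand. Man2a2, named after its value was seen, was at log2 -0.06 ± 0.07 (adjusted p = 0.88). Prc1, named in the same way, was at 0.60 ± 0.19 (adjusted p = 0.34), the direction of Rccd1. Whether Rccd1 and Prc1 share reads was not tested.

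Of 39 genes tested within 1 Mb of Polg, 4 were higher and 3 lower (17.9% called, against 0.216% of all genes). Without Hapln3, which passed the filter through 1 group, 6 of 38 were called (15.8%). From 1 to 10 Mb away 0 of 72 genes were called by limma, 1 by edgeR and 1 by DESeq2. Of these 72 genes 9 were at an unadjusted p under 0.05 (12.5%, against 7.87% of all genes). Elsewhere on chromosome 7 the count was 3 of 1143 (0.262%), namely Irf7, Atf5 and Shank2, which lie more than 30 Mb away. On other chromosomes 23 of 15368 genes were called (0.15%). Thus all 7 genes that limma called within 10 Mb of Polg lay within 1 Mb of it, with no common direction (median log2 of the 39 genes 0.005).

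**Figure D2:**
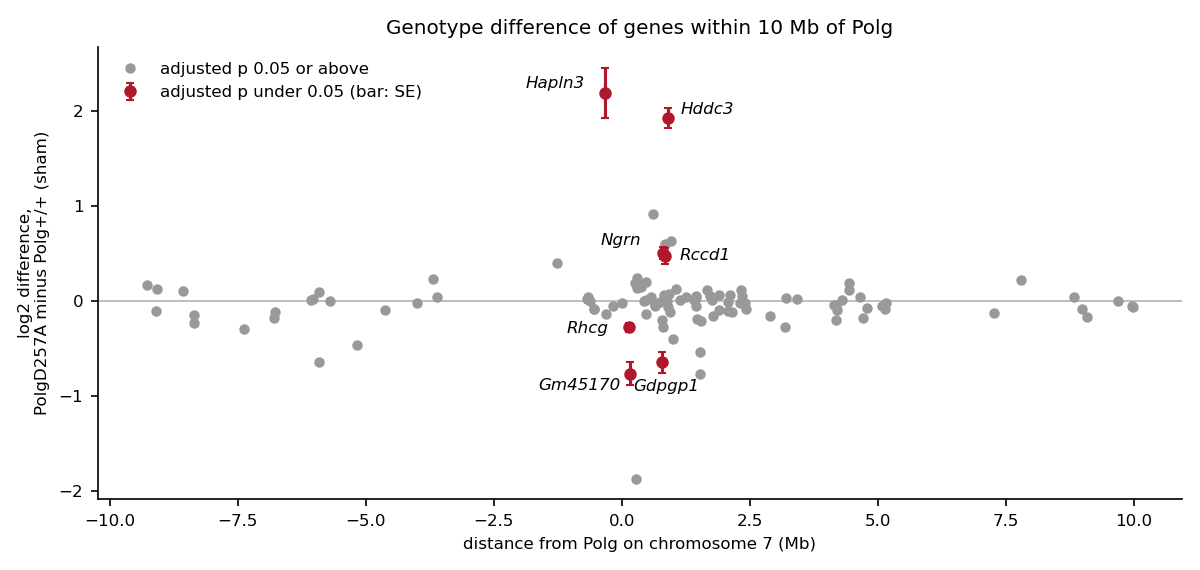
Log2 difference of PolgD257A minus Polg+/+ in sham kidneys (y axis) of the 111 genes tested within 10 Mb of Polg on chromosome 7, against distance from Polg in Mb (x axis). Red points with SE bars are the 7 genes past the threshold, all within 1 Mb, and grey points are the other genes, Polg at 0 among them. The lowest grey point is Plin1, an adipocyte gene whose libraries vary widely (log2 -1.87 ± 1.5).

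Of the genes of the mitochondrial genome, a pair of tRNA genes had higher counts in PolgD257A kidneys. mt-Tp, the tRNA for proline (chrM:15356-15422, minus strand of GRCm38), and mt-Tl1, a tRNA for leucine (chrM:2676-2750, plus strand), are printed below as DNA from the GENCODE M21 transcripts with the anticodon in capitals, because they carry the largest mitochondrial differences.
mt-Tp: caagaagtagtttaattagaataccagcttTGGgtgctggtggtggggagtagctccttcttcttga
mt-Tl1: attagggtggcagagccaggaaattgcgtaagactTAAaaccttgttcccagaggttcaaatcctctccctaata

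mt-Tp had 11856 to 15450 normalized counts in PolgD257A kidneys (median 14001) and 3980 to 6358 in Polg+/+ kidneys (median 5887). The lowest PolgD257A library was well above the highest Polg+/+ library, and the difference was 2.46-fold (log2 1.30 ± 0.10, adjusted p = 2.9e-06). mt-Tl1 had 85.75 to 158.9 in PolgD257A kidneys (median 89.55) and 38.58 to 56.34 in Polg+/+ kidneys (median 46.03), also without overlap (2.18-fold, log2 1.13 ± 0.16, adjusted p = 0.0026). mt-Tl1 is the counterpart of the human gene in which the classical MELAS mutation lies. Both calls were kept in all 24 alternative fits.

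Over the mitochondrial genome, 26 of 28 mitochondrial genes tested had a difference above 0, against 52.8% of all genes. The 13 mitochondrial mRNAs had a median log2 of 0.20, 12 of them above 0. With limma or edgeR 0 passed the threshold, and DESeq2 called 3 higher and 1 lower. At an unadjusted p under 0.05 with limma, 7 mRNAs were higher (53.8%, against 4.42% of all genes) and 0 lower. mt-Nd4l and mt-Nd3, subunits of complex I, had the smallest p among them (0.33 ± 0.09 and 0.35 ± 0.09, adjusted p = 0.18 and 0.19). mt-Cytb, the cytochrome b of complex III, was the one mRNA with a difference below 0 and is named after its value was seen (356239 to 389511 in PolgD257A against 386508 to 464708 in Polg+/+, log2 -0.19 ± 0.11, adjusted p = 0.70). Of 22 tRNAs 13 had enough counts to be tested, of which 12 were above 0, at a median of 0.42. Reads summed over PolgD257A and Polg+/+ libraries were 80301 and 28748 for mt-Tp but 0 and 1 for mt-Tf. Whether reads on tRNA genes come from mature tRNAs or from uncut precursors was not tested. Next by p after the called pair stood mt-Ty (0.55 ± 0.13, adjusted p = 0.12), the tRNA for tyrosine. Its groups did not overlap, nor did those of mt-Rnr2, mt-Nd1, mt-Nd4l and mt-Nd6. Of all genes tested 0.635% had no overlap in either direction. The 2 rRNAs were at 0.13 ± 0.07 (mt-Rnr1) and 0.28 ± 0.08 (mt-Rnr2), and neither passed (adjusted p = 0.68 and 0.23).

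As a share of all reads, mitochondrial tRNAs made up 0.0663% ± 0.00548 in PolgD257A and 0.0302% ± 0.00429 in Polg+/+ kidneys (SD, n = 6 each; exact two-sided permutation p = 0.002165, adjusted p = 0.00758). mt-Tp alone held 90.4% of these reads in PolgD257A and 83.3% in Polg+/+ libraries. The other tRNAs together held 0.00637% ± 0.000795 and 0.00504% ± 0.000647 (SD, n = 6). Shares of rRNA were 0.367% ± 0.0351 and 0.323% ± 0.0267 in PolgD257A and Polg+/+ kidneys (exact permutation p = 0.02814, adjusted p = 0.0492; 0.01299 to 0.05628 unadjusted when 1 library was left out). Shares of mRNA were 10.14% ± 0.284 and 9.66% ± 0.404 (exact permutation p = 0.03896, adjusted p = 0.0545). By strand of the annotated gene, 6 tested genes on the minus strand, mt-Tp among them, had a median log2 of 0.42 and 22 on the plus strand had 0.22. Mitochondrial genes have near copies in the nuclear genome, and the handling of reads shared with those copies is not stated in the labels used here.

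**Figure D3:**
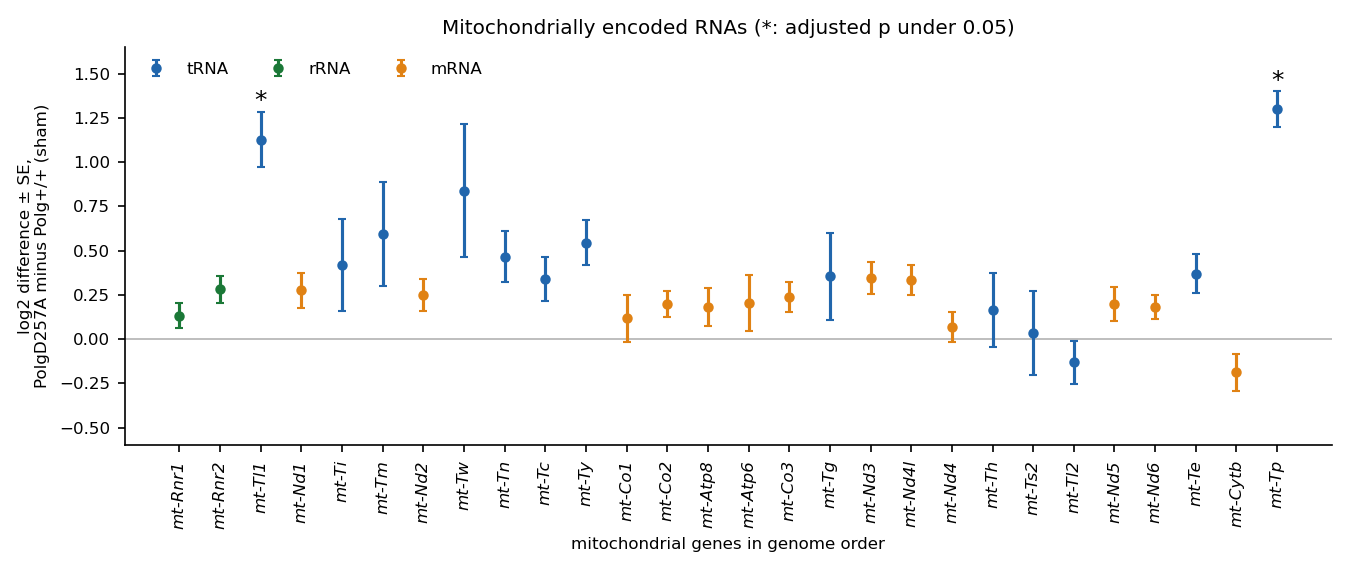
Log2 difference ± SE of PolgD257A minus Polg+/+ in sham kidneys (y axis) for the 28 mitochondrial genes tested, in genome order (x axis), coloured as tRNA, rRNA and mRNA. The asterisks mark mt-Tl1 (1.13) and mt-Tp (1.30), which stand far above the mRNAs (-0.19 to 0.35).

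Lists of nuclear genes that serve mitochondria held few or no calls. Of 24 genes for replication and transcription of mitochondrial DNA 0 were called by limma, edgeR or DESeq2, at a median log2 of 0.001 with 12 above and 12 below 0, and 0 had an unadjusted p under 0.05. The 36 nuclear subunits of complex I and the 39 of complexes II to V had medians of 0.07 and 0.06 (0.05 and 0.02 after quantile normalization) with 0 called by limma, edgeR or DESeq2 and 0 at an unadjusted p under 0.05. The 41 cytosolic ribosomal protein genes had a like median (0.06, and 0.03 after quantile normalization). Differences above 0 were seen in 35 of 36, 39 of 39 and 41 of 41 genes of these lists, with 0 called by limma. A count of genes above 0, in any list described here, is thus no measure of evidence by itself. When 1 library was left out, the medians ranged from 0.023 to 0.112 for complex I nuclear subunits, 0.017 to 0.104 for complex II to V nuclear subunits and 0.008 to 0.109 for cytosolic ribosomal proteins. The lowest values were those without PolgD257A replicate 6, and the highest those without Polg+/+ replicate 4 (complex I) or PolgD257A replicate 3 (the other lists). Among regulators of mitochondrial biogenesis, 0 of 11 passed with limma, edgeR or DESeq2. At an unadjusted p under 0.05, 4 were higher (36.4%, against 4.42% of all genes) and 0 lower. Perm1 was at 0.41 ± 0.10 (adjusted p = 0.18) and Esrra, which encodes the nuclear receptor ERRα, at 0.14 ± 0.05 (adjusted p = 0.43).

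Interferon-stimulated genes were the second group. Of 61 tested, 5 were higher and 0 lower, 36 were higher at an unadjusted p under 0.05 (59%, against 4.42% of all genes) and 59 had a difference above 0. Their median log2 was 0.25, and 0.21 to 0.29 over the alternatives. Lgals3bp (ENSMUSG00000033880.12), which encodes a secreted galectin-binding glycoprotein, had 1372 to 1948 normalized counts in PolgD257A kidneys (median 1474) and 852.3 to 1016 in Polg+/+ kidneys (median 915.9). The groups did not overlap, and the difference was 1.70-fold (log2 0.76 ± 0.08, adjusted p = 2.6e-04). Ifi27 (ENSMUSG00000064215.14), an interferon-induced gene whose product is found at mitochondria and the nuclear envelope, had 1153 to 1711 in PolgD257A and 824.2 to 1019 in Polg+/+ kidneys (log2 0.62 ± 0.08, adjusted p = 0.0026). Both genes kept their call in all 24 alternative fits.

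Irf7, the transcription factor that amplifies type I interferon, had 358.4 to 518.9 normalized counts in PolgD257A kidneys (median 416) and 199.9 to 312.3 in Polg+/+ kidneys (median 266.3), with no overlap (log2 0.72 ± 0.11, adjusted p = 0.0045). Rtp4, an interferon-induced chaperone of membrane receptors, was higher as well (0.62 ± 0.11, adjusted p = 0.020), as was Bst2, the virus-tethering membrane protein tetherin (387.1 to 486.4 in PolgD257A against 232.7 to 381.3 in Polg+/+, 0.51 ± 0.10, adjusted p = 0.044). The call of Rtp4 was lost without Polg+/+ replicate 3 (0.61), PolgD257A replicate 4 (0.57) or PolgD257A replicate 5 (0.61). The call of Bst2 was kept in 11 of 24 alternative fits, in which its difference ranged from 0.43 to 0.57. In 1 fit of all 24 libraries Irf7 (adjusted p = 0.0654), Rtp4 (0.153) and Bst2 (0.23) did not pass. Irf7 overlaps Phrf1 and Rtp4 overlaps Masp1 on the opposite strand. Of 23 sensors of nucleic acid 0 were called by limma or edgeR and 1 by DESeq2, and the median was 0.02. At an unadjusted p under 0.05, 4 were higher (17.4%, against 4.42% of all genes). The RNA sensor genes Ddx58 and Ifih1 were at 0.30 ± 0.08 (adjusted p = 0.17) and 0.27 ± 0.08 (adjusted p = 0.29). Of 19 MHC genes 0 were called by limma or edgeR and 1 by DESeq2. At an unadjusted p under 0.05, 7 were higher (36.8%, against 4.42% of all genes). B2m, the shared light chain of class I, was 4890 ± 337.4 in PolgD257A and 4150 ± 230 in Polg+/+ kidneys (SD, n = 6). Its difference was 0.24 ± 0.05 (adjusted p = 0.093).

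Counts of these genes summed to 19139 to 23527 in PolgD257A and 15526 to 18517 in Polg+/+ kidneys, without overlap. Summed markers of immune cells overlapped between the genotypes. Of 17 macrophage and monocyte genes 11 were above 0 (median 0.11, summed counts 3527 to 4232 in PolgD257A and 3554 to 4577 in Polg+/+), and of 15 T, NK and B cell genes 8 were above 0 (466.2 to 887.7 and 419.2 to 968.9). Endothelial genes leaned higher, 12 of 13 above 0 at a median of 0.16. Of these 13, 0 were called by limma or edgeR (2 by limma without Polg+/+ replicate 6) and 1 by DESeq2. At an unadjusted p under 0.05, 5 were higher (38.5%, against 4.42% of all genes). They summed to 12506 to 14854 in PolgD257A and 10802 to 14966 in Polg+/+ kidneys. Flt1, a VEGF receptor, had the smallest p among them (0.32 ± 0.08, adjusted p = 0.16). The part of endothelial genes in the interferon result was not tested. In bulk tissue, more cells of a type and more RNA per cell cannot be told apart.

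A classical binding sequence of the interferon factors, the ISRE (a pair of TTTC letters 2 bases apart, searched on both strands), was found in the RefSeq promoters (GRCm38.p6, 250 bases before to 50 after the start) of 24 of 47 listed interferon-stimulated genes with a promoter entry, and in 3.49% of all 27025 promoters. Of the 5 called genes 3 had an entry, and Bst2 alone among them held a match. Its promoter (chr8:71537423-71537722, minus strand) is shown because 2 ISRE matches overlap there with a GAS match (TTCNNNGAA, 8.47% of all promoters), all in capitals. A match is a description of the letters and not evidence of binding.
Bst2: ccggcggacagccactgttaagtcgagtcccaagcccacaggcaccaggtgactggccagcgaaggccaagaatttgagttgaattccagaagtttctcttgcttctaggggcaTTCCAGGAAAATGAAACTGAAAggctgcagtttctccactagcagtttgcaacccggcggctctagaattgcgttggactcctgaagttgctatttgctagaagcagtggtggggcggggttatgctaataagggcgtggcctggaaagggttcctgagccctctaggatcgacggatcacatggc

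Genes of the integrated stress response formed a smaller group. Of 30 tested 2 were higher and 0 lower, 10 were higher at an unadjusted p under 0.05 (33.3%, against 4.42% of all genes) and 28 had a difference above 0, at a median of 0.13. Asns, asparagine synthetase, had 220.5 to 304.1 normalized counts in PolgD257A kidneys (median 281.5) and 113.6 to 220.3 in Polg+/+ kidneys (median 147). The lowest PolgD257A library stood just above the highest Polg+/+ library, and the difference was 1.75-fold (log2 0.81 ± 0.14, adjusted p = 0.015), a call lost without PolgD257A replicate 4 (0.78, adjusted p = 0.057). Atf5, a transcription factor of mitochondrial stress, had 535.1 to 658.7 in PolgD257A and 331.2 to 471.2 in Polg+/+ kidneys (0.55 ± 0.09, adjusted p = 0.011) and overlaps Il4i1 and Nup62 on the opposite strand. In 1 fit of all 24 libraries neither passed (adjusted p = 0.081 for Asns and 0.395 for Atf5). Chac1, which degrades glutathione, and Nupr1, a stress-induced chromatin protein, stood next by p and did not pass (1.20 ± 0.27, adjusted p = 0.11, and 0.38 ± 0.09, adjusted p = 0.15). Atf5 was the one called gene among 12 of the mitochondrial unfolded protein response, whose median was 0.04. In the serine and one-carbon list 0 of 23 genes were called by limma, edgeR or DESeq2 (3 at an unadjusted p under 0.05), with Gldc, a subunit of glycine cleavage, at 0.56 ± 0.15 (adjusted p = 0.19) and Mthfd2, a mitochondrial folate enzyme, at 0.47 ± 0.14 (adjusted p = 0.31).

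The ATF4 element TGATGNAA was found in the promoters of 7 of 24 listed stress response genes with an entry and in 4.06% of all promoters. The Asns promoter (chr6:7693160-7693459, minus strand) is shown with its single match in capitals, which begins 23 bases before the start. No match was found in the 300 bases at Atf5.
Asns: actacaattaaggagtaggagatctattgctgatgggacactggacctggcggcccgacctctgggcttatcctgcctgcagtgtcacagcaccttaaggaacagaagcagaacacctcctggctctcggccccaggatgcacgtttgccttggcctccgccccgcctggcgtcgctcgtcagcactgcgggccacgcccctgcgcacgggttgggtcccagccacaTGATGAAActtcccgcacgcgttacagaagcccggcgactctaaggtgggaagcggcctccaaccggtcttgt

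Intercalated cells of the collecting duct secrete acid or base, and 2 of their genes were lower in PolgD257A kidneys. Foxi1 (ENSMUSG00000047861.3), the forkhead factor these cells need to form, had 278.8 to 422.5 normalized counts in PolgD257A kidneys (median 386.2) and 537.1 to 1044 in Polg+/+ kidneys (median 646.6). No library overlapped, and the difference was log2 -0.87 ± 0.13 (0.548-fold, adjusted p = 0.0061). The highest Polg+/+ value is that of replicate 6. Without it the difference was -0.74 (adjusted p = 0.0024), and the call was kept in all 24 alternative fits. Rhcg, the ammonia transporter, had 2298 to 2498 in PolgD257A and 2656 to 3228 in Polg+/+ kidneys (-0.27 ± 0.05, adjusted p = 0.015). Its call was lost without PolgD257A replicate 4 (-0.26) or 5 (-0.27) and in 1 fit of all 24 libraries (adjusted p = 0.412). Rhcg is also one of the genes beside Polg, at 147.1 kb.

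Of 23 intercalated cell genes 2 were lower and 0 higher, 13 were lower at an unadjusted p under 0.05 (56.5%, against 3.45% of all genes) and 22 had a difference below 0. Their median was -0.22, and -0.17 without Polg+/+ replicate 6. Slc26a4, the chloride-bicarbonate exchanger pendrin, had the next smallest p and did not overlap between the groups (1835 ± 92.9 in PolgD257A and 2118 ± 133.3 in Polg+/+, SD, n = 6; -0.21 ± 0.05, adjusted p = 0.15), followed by the homeobox gene Hmx2 (-0.25 ± 0.07, adjusted p = 0.27). Summed counts were 32182 to 34009 in PolgD257A and 33634 to 41571 in Polg+/+ kidneys. The mean level of the list was below every Polg+/+ library in 6 of 6 PolgD257A libraries, with Polg+/+ replicate 6 far above the other Polg+/+ libraries (0.31 against -0.16 to 0.06 on the log2 scale). At the edge this was nearly a tie, with PolgD257A replicate 1 at -0.157 and Polg+/+ replicate 2 at -0.156, and the summed counts overlapped. Principal cell genes, the neighbours in the same duct, leaned lower too: 12 of 14 were below 0 at a median of -0.11 (-0.07 without Polg+/+ replicate 6). Of these 14, 0 were called by limma or edgeR and 1 by DESeq2. At an unadjusted p under 0.05, 5 were lower (35.7%, against 3.45% of all genes). Their summed counts overlapped (23515 to 27920 in PolgD257A and 24161 to 30729 in Polg+/+). Scnn1b and Scnn1g, subunits of the epithelial sodium channel, were at -0.23 ± 0.06 and -0.23 ± 0.06 (adjusted p = 0.17 and 0.24). Loop of Henle and distal convoluted tubule genes were near 0 (medians -0.01 and -0.03, 0 of 12 and 0 of 11 called by limma or edgeR, 1 and 0 by DESeq2, 1 each at an unadjusted p under 0.05).

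**Figure D4:**
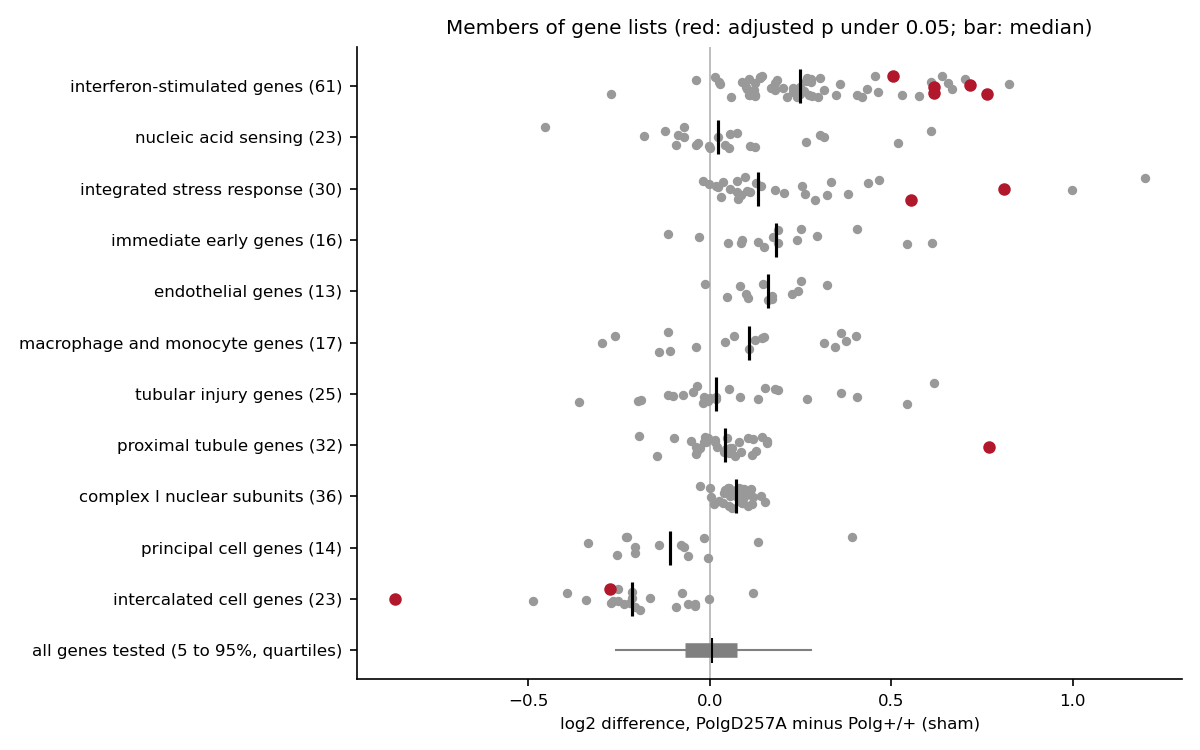
Log2 difference of PolgD257A minus Polg+/+ in sham kidneys (x axis) for the tested members of 11 gene lists (rows, number of genes in brackets). Points are genes, red where they pass the threshold, black bars are list medians, and the lowest row gives the quartiles and the 5 to 95% range of all genes. Interferon-stimulated genes sit mostly right of 0 (median 0.25) and intercalated cell genes mostly left (median -0.22).

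A clock gene was called as well. Cry1, a repressor of the circadian clock, had 151.3 to 255.8 normalized counts in PolgD257A kidneys (median 222.8) and 60.84 to 137.2 in Polg+/+ kidneys (median 107.8; log2 0.99 ± 0.18, adjusted p = 0.023). The groups did not overlap. Cry2, the paralog of Cry1, just missed the threshold and was not called (0.35 ± 0.07, adjusted p = 0.0504). The call of Cry1 was lost in 5 of the 12 fits that left out 1 library (0.93 to 0.99 there). The clock list gave no common direction, with 10 of 19 genes above 0 and a median of 0.02. The labels used here give no hour of collection, and its part was not tested. Immediate early genes, which respond within minutes to handling and stress, had 14 of 16 above 0 at a median of 0.18. Of these 16, 0 were called by limma or edgeR (2 by limma without Polg+/+ replicate 1) and 1 by DESeq2. At an unadjusted p under 0.05, 5 were higher (31.2%, against 4.42% of all genes). Dusp1 was at 0.61 ± 0.14 (adjusted p = 0.10).

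The remaining called genes had varied functions. Pck1, the enzyme that commits carbon to gluconeogenesis, had 41639 to 63354 normalized counts in PolgD257A kidneys (median 50767) and 17557 to 34375 in Polg+/+ kidneys (median 33049), without overlap (1.71-fold, log2 0.77 ± 0.15, adjusted p = 0.032). The lowest Polg+/+ value again belongs to replicate 6, and without it the difference was 0.62 (adjusted p = 0.0040). The call was lost in 8 of the other fits that left out 1 library (0.71 to 0.81). It was also lost in 1 fit of all 24 libraries (adjusted p = 0.423). Pck1 was the only one of 32 proximal tubule genes called, and the next by p was Fbp1, which acts in the same pathway (0.16 ± 0.07, adjusted p = 0.53). Ndrg1, a stress and hypoxia responsive gene, was 24526 to 30963 in PolgD257A and 16454 to 22607 in Polg+/+ kidneys (0.44 ± 0.09, adjusted p = 0.045), the 1 called among 17 hypoxia genes, and kept its call in 10 of 24 alternative fits. Slc13a2, a citrate and dicarboxylate transporter, was at 0.35 ± 0.06 (adjusted p = 0.023), and Acnat2, a peroxisomal acyltransferase, at 0.44 ± 0.08 (adjusted p = 0.019). Their calls were kept in 18 and 22 of 24 alternative fits, and that of Acnat2 was lost without PolgD257A replicate 4 (0.41, adjusted p = 0.062). Neither gene passed in 1 fit of all 24 libraries (adjusted p = 0.516 and 0.381).

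Col27a1, a fibrillar collagen, was 2620 to 3353 in PolgD257A and 1770 to 2425 in Polg+/+ kidneys (0.56 ± 0.08, adjusted p = 0.0026). It is not among the 18 fibroblast and matrix genes listed, which gave 0 calls by limma, edgeR or DESeq2 (1 at an unadjusted p under 0.05) and a median of -0.02. Rhobtb1, an atypical small GTPase (0.50 ± 0.07, adjusted p = 0.0026), Map3k5, the stress kinase ASK1 (0.39 ± 0.06, adjusted p = 0.0052), and Mnt, a repressor that pairs with MAX (0.41 ± 0.07, adjusted p = 0.014), were higher too. The call of Mnt was lost without PolgD257A replicate 5 (0.40). Lower genes were Ddc, the enzyme that makes dopamine (1150 to 1258 in PolgD257A against 1397 to 1760 in Polg+/+, -0.35 ± 0.05, adjusted p = 0.0052), and Dgkg, a diacylglycerol kinase (110.7 to 145.3 against 171.3 to 205.5, -0.57 ± 0.08, adjusted p = 0.0043). In 1 fit of all 24 libraries Col27a1 (adjusted p = 0.433), Ddc (0.382) and Dgkg (0.196) did not pass. The scaffold gene Shank2 (-0.37 ± 0.07, adjusted p = 0.044) and the glycosyltransferase-like gene Glt1d1 (-0.33 ± 0.07, adjusted p = 0.045) were lower as well, and the groups overlapped for Shank2. Among all 36 calls, 5 predicted genes or pseudogenes, Gm45170 beside Polg included, ranged from -0.76 to 0.91. An ID without a symbol was at -0.79 ± 0.10. Ftl1-ps1 (-0.32 ± 0.06), one of these pseudogenes, shares sequence with a ferritin gene, so its reads are uncertain.

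Lists of injury and metabolism gave no further calls by limma. Of 25 tubular injury genes 0 were called by limma, edgeR or DESeq2 (5 at an unadjusted p under 0.05, 3 of them higher), the median was 0.02, and Fga, a fibrinogen chain, had the smallest p (0.41 ± 0.12, adjusted p = 0.27). De novo purine and pyrimidine synthesis genes had medians of 0.01 and 0.06 with 0 of 13 and 0 of 13 called by limma, edgeR or DESeq2 and 0 at an unadjusted p under 0.05 in each list. Cell cycle, p53 target, NRF2 target, heat shock, fatty acid oxidation and TCA cycle genes had medians between -0.05 and 0.06 with 0 called by limma or edgeR and 1, a p53 target, by DESeq2 (0 to 3 per list and direction at an unadjusted p under 0.05). Adipocyte genes varied most from library to library, with summed counts of 1142 to 4183 in PolgD257A and 999.1 to 5902 in Polg+/+ kidneys, a median of -1.47 over 6 genes (with 1 library left out, from -2.18 over 4 genes without PolgD257A replicate 6 to -0.86 without PolgD257A replicate 2) and 0 called by limma, edgeR or DESeq2 (0 at an unadjusted p under 0.05). On simulated counts of these libraries the same test recovered 76% of genes changed 1.5-fold, so smaller differences were often not detectable at this depth and number of libraries.

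The same genotype contrast in the B-IRI libraries, which share no sample with the sham libraries, was far wider: 4598 of 16553 genes were called (27.8%), 2299 higher and 2299 lower (13.9% each). Of the 36 genes called in sham 35 were tested there, 28 kept the sign, and 17 were called the same way (48.6%). Of the 7 chromosome 7 genes beside Polg 6 were called the same way, with the seventh, Hapln3, too scarce to be tested. Of the other 29, 11 were called the same way. Hddc3 was 174.4 ± 21.99 in B-IRI PolgD257A and 62.71 ± 2.85 in B-IRI Polg+/+ kidneys (SD, n = 6; log2 1.45 ± 0.09, adjusted p = 2.5e-06), mt-Tp 9601 ± 907.2 and 5144 ± 418.6 (0.90 ± 0.07, adjusted p = 2.3e-05), and Lgals3bp 1922 ± 249.9 and 1190 ± 66.2 (0.68 ± 0.08, adjusted p = 2.0e-04). Asns (0.73, adjusted p = 0.016), Ifi27 (0.27, adjusted p = 0.023) and mt-Tl1 (0.63, adjusted p = 0.027) passed as well, while Irf7 (0.36, adjusted p = 0.15), Rtp4 (0.19, adjusted p = 0.48) and Bst2 (0.37, adjusted p = 0.093) did not.

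Whether the genotype difference itself differed between the surgeries was tested by the interaction, which called 2780 of 17430 genes (15.9%, of which 6.87% with a positive and 9.08% with a negative value) and 12 of the 36 (33.3%), 3 positive and 9 negative. That test also uses the sham libraries by which the 36 genes were selected. Selection alone favours changes against the sham difference, so the 33.3% cannot be read against the 15.9%. Foxi1 is one of the 12. It was 382.5 ± 39.22 in B-IRI PolgD257A and 394 ± 51.25 in B-IRI Polg+/+ kidneys (SD, n = 6), a difference of -0.04 (interaction 0.83, adjusted p = 0.0022). B-IRI levels of both genotypes thus lay within the range of the sham PolgD257A libraries by their means. In 3 of the 35 genes both contrasts passed in opposite directions, higher in sham PolgD257A and lower after B-IRI. The predicted gene Gm4952 (0.91 in sham, -0.79 after B-IRI, interaction adjusted p = 2.7e-04) and Slc13a2 (0.35 and -0.53, adjusted p = 0.0034) are among them. Rhobtb1, Map3k5 and Mnt, higher in sham, had differences of -0.22, -0.05 and -0.02 after B-IRI, which did not pass, and interactions that did (adjusted p = 1.6e-04, 0.0059 and 0.0044). For Rccd1 the difference was larger after B-IRI (0.92 against 0.47 in sham, interaction adjusted p = 0.0069), and for Hddc3 and mt-Tp it was smaller (interaction -0.47 and -0.40, adjusted p = 0.020 and 0.039).

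**Figure D5:**
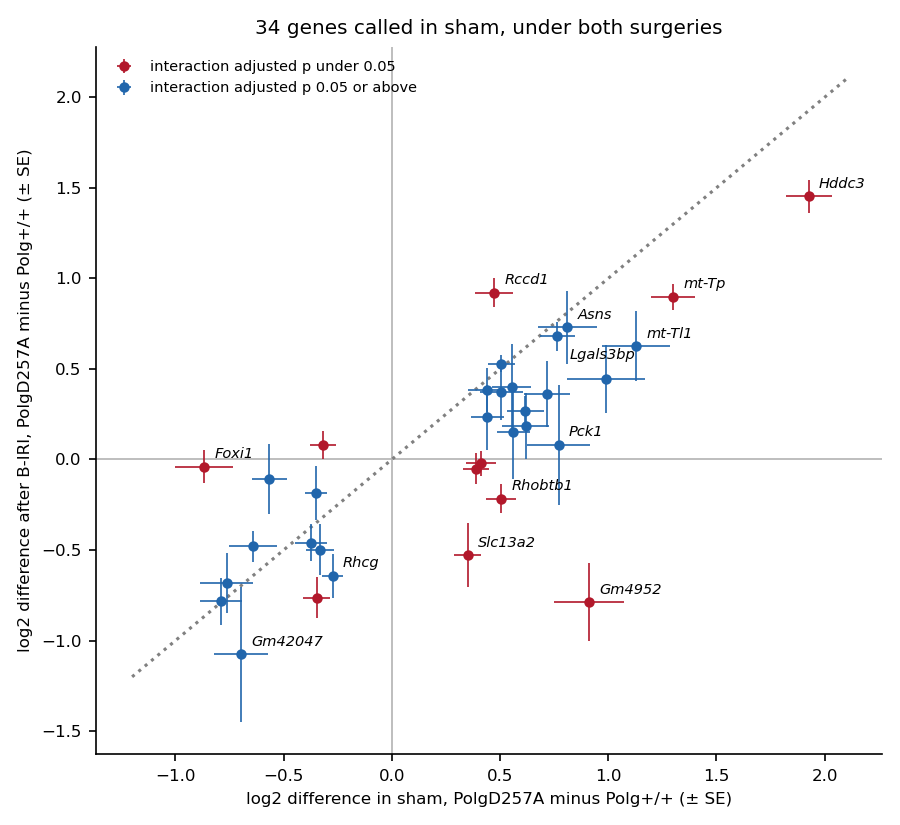
Log2 difference of PolgD257A minus Polg+/+ after B-IRI (y axis) against that in sham kidneys (x axis) for 34 of the 35 genes called in sham and tested after both surgeries, with SE bars. The dotted line marks equal differences, and red points are 11 of the 12 genes called by the interaction. Hddc3 and mt-Tp lie high on both axes, whereas Slc13a2 and Gm4952 lie below 0 after B-IRI.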

How the data were processed

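Per the labels' protocols, RNeasy kits yielded the kidney RNA of 24 mice and 2 µg of it went into each NEBNext Ultra II RNA library. The submitters' processing notes name FastQC, STAR, SAMtools, featureCounts, DESeq2 and GRCm38.p6 without versions. Strandedness is not stated in these sources. The deposited signal values are gene counts that the authors divided by 1 size factor per library. Multiplying back (factors 0.740 to 1.315) returned whole reads, within 0.001, for 100% of values, which gave the depths and the input of the count models.

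Genotypes were compared by limma-trend (limma 3.58.1 in R 4.3.3) across the 12 sham libraries, after log2(normalized count + 1). Genes needed 10 normalized counts or more in 6 libraries or more. A separate fit used the B-IRI libraries, and the interaction all 24. Library measures were compared by exact two-sided permutation. GENCODE M21 gave symbols and positions for 52083 of 55416 IDs (93.99%), of which 35 had the same ID version, so the annotation behind the values differs from it. Promoters are RefSeq's, found for 23 of 36 called genes.

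Named genes are Polg, Hddc3, mt-Tp, Lgals3bp, Ifi27 and Foxi1, the 15 largest called rises and falls among genes averaging 100 or more and the 5 largest among scarcer genes, without predicted genes. Up to 4 members per list with the smallest p and called genes within 10 Mb of Polg were added. The members and lists were chosen with earlier results of these data known. Other called genes are named to account for the calls. A result that the rule selects is not reported here. Many called genes overlap another on the opposite strand, so their reads are uncertain: Hddc3, Rhobtb1, Dgkg, Irf7, Ddc, Atf5, Gdpgp1, Acnat2, Rtp4, Slc13a2, Rccd1, Shank2, Glt1d1, Ndrg1 and Ftl1-ps1, as does Polg.

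Other settings tried were edgeR 4.0.16 and DESeq2 1.42.0 with the recovered reads, a pseudocount of 0.5 or 5, a filter of 50 or none, TMM scaling, library weights, quantile normalization, thinning, a replicate block, 1 fit of all 24 libraries and leaving out each library. List medians under these alternatives were added after seeing the data. Limma was tested on simulated counts of 16506 genes, with 50 genes changed at each of 1.25-, 1.5-, 2- and 4-fold. It recovered 19, 38, 41 and 49 of these and made 13 false calls. The false calls are to be read against the genes recovered, not against all genes. More genes were changed in the simulation than were called in sham kidneys, so the share of false calls need not be the same there. No 2 libraries agreed within sampling noise (lowest chi-square per degree of freedom 3.85). Python 3.11.15, NumPy 2.4.6, pandas 2.3.3, SciPy 1.17.1 and Matplotlib 3.10.9 were used for the rest.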

Additional observations from a re-analysis of the deposited data

Results flagged for a closer look

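For 9 values the highest or lowest of the 6 libraries stood apart from the rest of its group by Dixon's criterion, among 74 groups of gene values and 14 of library measures, and chance gives this in about 1 of 20 groups. Polg+/+ replicate 6 gave 3 of them, with 1044 normalized counts of Foxi1, 738 of Slc13a2 and 17557 of Pck1. The others were Polg+/+ replicate 3 for mt-Tp (3980), PolgD257A replicate 1 for mt-Tl1 (159), PolgD257A replicate 6 for Ddc (1150), Polg+/+ replicate 1 for reads assigned to genes (16689284), PolgD257A replicate 5 for the share of hemoglobin reads (0.0695%) and Polg+/+ replicate 3 for the share of the 10 most abundant genes (13.37%).

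For 12 genes called in sham, 11 of which are given here, the genotype difference after B-IRI differed from that in sham by limma's interaction test. The sham libraries that selected these genes enter that test, which favours changes against the sham difference. The change of the log2 difference was negative for Gm4952 (-1.70), Slc13a2 (-0.88), Rhobtb1 (-0.72), Hddc3 (-0.47), Map3k5 (-0.44), Mnt (-0.43), Gm5424 (-0.42) and mt-Tp (-0.40). It was positive for Foxi1 (0.83), Rccd1 (0.45) and Ftl1-ps1 (0.40).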

How the results depend on the processing

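Of the 36 genes called in sham, 12 kept their call in every alternative in which they were tested, and 0 changed direction. The counts of higher and lower genes were 50 and 20 with library weights, 80 and 32 with DESeq2 and 15 and 7 in 1 fit of all 24 libraries. Leaving out each library gave 12 to 33 higher and 6 to 12 lower genes. With the replicate number as a block 27 genes were higher and 7 lower. Same-numbered sham libraries correlated at -0.0278 to 0.0996, so little likeness by number was seen. Weak correlations cannot settle whether the numbers mark a shared litter or batch, which was not tested. The cause of the changed counts was not tested either. Leaving out each library gave 3485 to 4652 calls after B-IRI and 2101 to 3034 by the interaction, and the other alternatives 3475 to 5140 and 2039 to 3242. The difference in the share of hemoglobin reads was -0.001063 to 0.01025 when 1 library was left out, the negative value without PolgD257A replicate 5. Intervals and tests cover 6 libraries a group, and calls near the threshold, such as those of Bst2, Ndrg1, Glt1d1 and Shank2, were kept in 11, 10, 10 and 10 of 24 alternatives.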
